A study of Homo sapiens with 16 samples.

Results

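Trichostatin A (TSA) was given to 2 human colon carcinoma lines, HCT116 and RKO, and the genes whose TSA response differed between the lines are described here from all 16 arrays of the series. Each line contributed 8 Affymetrix U133 Plus 2.0 arrays, 1 for each of 8 conditions after 3 days: a control, each of the 3 drugs PJ-34, 5-aza-dC and TSA by itself, every pair of them, and all 3 at once. Pairs are written with a slash, as in PJ-34/TSA. TSA was used at 150 nM and 5-aza-dC at 0.5 µM in both lines, and PJ-34 at 3 µM in HCT116. For PJ-34 in RKO the study's text gives both 2 and 3 µM. No condition was repeated, so the TSA effect of a line is the mean log2 signal of its 4 arrays with TSA minus that of its 4 arrays without, each of the 4 backgrounds of the other drugs counting once. The error then covers the spread left after additive drug effects, and nothing in the labels says how this compares with the spread between separate cultures.

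TSA inhibits the zinc-dependent histone deacetylases (HDACs), the enzymes that take acetyl groups off histone tails and many other proteins. Acetylated chromatin is more open to transcription factors, yet HDAC inhibitors are known to lower many transcripts as well as to raise others. A cell-cycle arrest with raised CDKN1A is the classical response of colon carcinoma cells. PJ-34 inhibits poly(ADP-ribose) polymerase and 5-aza-dC inhibits DNA methyltransferases.

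Of 54675 probe sets, 42119 reached a signal of 100 on at least 4 arrays and were tested after signals under 50 were set to 50. The arrays were scaled alike, with trimmed means of 1000.14 to 1000.16, and 21.9 to 27.3% of each array's signals lay under 50. Colon epithelium markers summed to 188000 to 270000 without and 230000 to 268000 with TSA in HCT116. In RKO the same 18 markers summed to 20400 to 22200 without and 20500 to 22100 with TSA, and CDX1, ESRP1 and KRT19 stayed under 100 on all 8 RKO arrays. Mesenchyme markers summed to 4700 to 24500 in HCT116 and to 28600 to 68800 in RKO. None of 11 blood-lineage markers reached 500 on all 8 arrays of either line, and SPI1 was under 100 throughout. In RKO, 30 probe sets at 500 or more and 8-fold or more above control on the 5-aza-dC array were also high on the array labelled PJ-34, by a median log2 ratio of 4.26, with a median ratio of 0 on the array labelled PJ-34/5-aza-dC. These 2 arrays therefore go against their labels. Neither received TSA by its label, so the estimated TSA effects are the same whichever label each bears, but the residual spread is not, and counts and calls are given below also without both.

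The line-by-TSA term, the TSA effect in HCT116 minus that in RKO, passed an adjusted p of 0.05 at 169 probe sets of 139 genes, which is 0.401% of those tested. The effect was higher in HCT116 at 66 of them (0.157%) and lower at 103 (0.245%). Their differences ranged in size from 0.515 to 2.79 on the log2 scale, with a median of 0.909, while the median difference over all probe sets tested was -0.04. An unadjusted p under 0.05 was reached at 5140 probe sets, or 12.2%. The count rested on the error model: without the variance trend over signal it was 3, without the filter on low signals 36, and without both disputed RKO arrays 56. Leaving out 1 array gave from 19 to 762 probe sets, as the bar chart of left-out arrays shows, and the sign of the difference was kept in every fit that tested the probe set (167 of the 169 were tested with the filter at 200 and all 169 in the others). A fit added after the data were seen, with the drug background as a block in each line, gave 263 and shared 168 of the 169. Without both disputed RKO arrays 39 of the 169 still passed. Of the 39 genes named by rule that passed, 10 did so there as well: RUNX2, LTAP1, CCND1, ADM, CD55, GEM, SLC38A2, DUSP5, TIMP1 and THSD4. Calls that ended there included those of MMP1 (adjusted p = 0.0945), ISG20 (0.0616), API5 (0.0623), EGR1 (0.169), MDM2 (0.185), E2F1 (0.199) and DDIT3 (0.204).

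**Figure D1:**
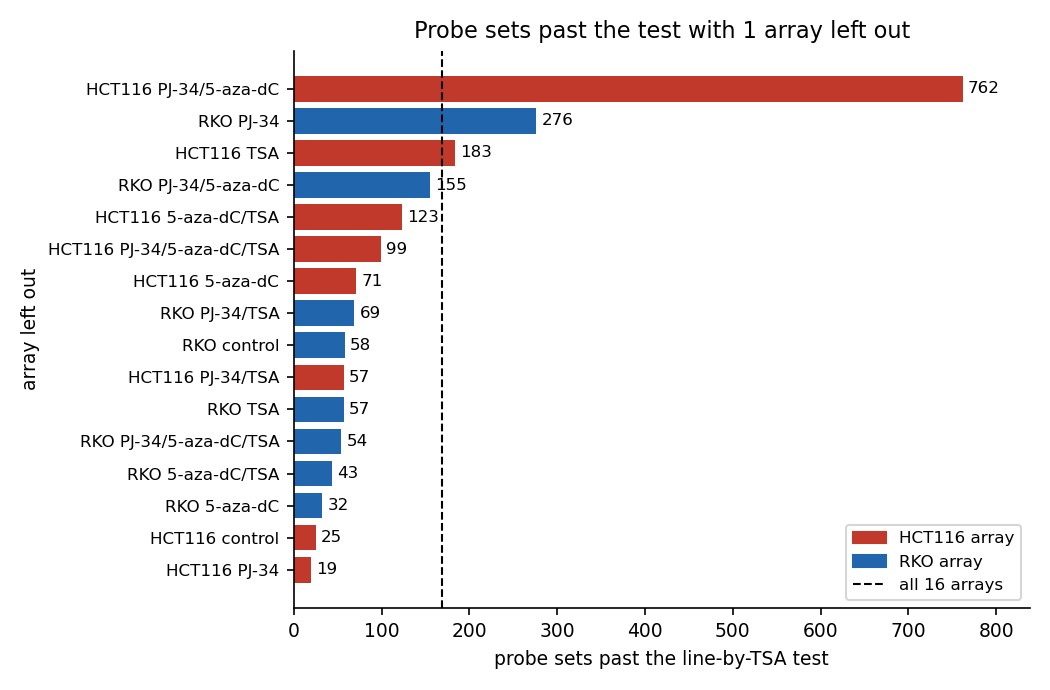
Number of probe sets past the line-by-TSA test (horizontal axis) when the array named on the vertical axis was left out, with HCT116 arrays in red, RKO arrays in blue and the count with all 16 arrays as a dashed line. The count was lowest, 19, without the HCT116 PJ-34 array and highest, 762, without the HCT116 PJ-34/5-aza-dC array.

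Taken line by line in the same fit, the TSA effect passed at 3918 probe sets in HCT116 (9.3%), 1953 up (4.64%) and 1965 down (4.67%). In RKO it passed at 0, with a smallest adjusted p of 0.162 by limma, although 3383 probe sets (8.03%) had an unadjusted p under 0.05. Leaving out the RKO array labelled PJ-34 raised the RKO count to 23. The effects were larger in HCT116, with an SD over all probe sets of 0.495 against 0.392, and the median residual SD was 0.401 in HCT116 and 0.36 in RKO. Of the 3763 HCT116 probe sets that passed without a difference between lines, 2963 (78.7%) had the same sign in RKO, against 57.8% of all probe sets tested. Across probe sets, which are not independent, the TSA effects of the lines had a Pearson r of 0.14.

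The 169 probe sets fell into classes by the effect in each line. "HCT116 only" means an adjusted p under 0.05 in HCT116 and an unadjusted p of at least 0.05 in RKO, and held 124 probe sets, 58 up and 66 down. "Opposite" means an unadjusted p under 0.05 in both lines with different signs, and held 38, of which 33 were down in HCT116 and up in RKO and 5 the reverse. All probe sets with such opposite signs, whatever their difference test, numbered 161 (0.382%), and those with the same sign 1040 (2.47%). "Same direction" held 5 probe sets. The class for RKO alone was empty, since no RKO effect passed the adjustment. The remaining 2 probe sets, for SERPINE2 and HLA-G, had the larger effect in RKO and an unadjusted HCT116 p just above 0.05.

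**Figure D2:**
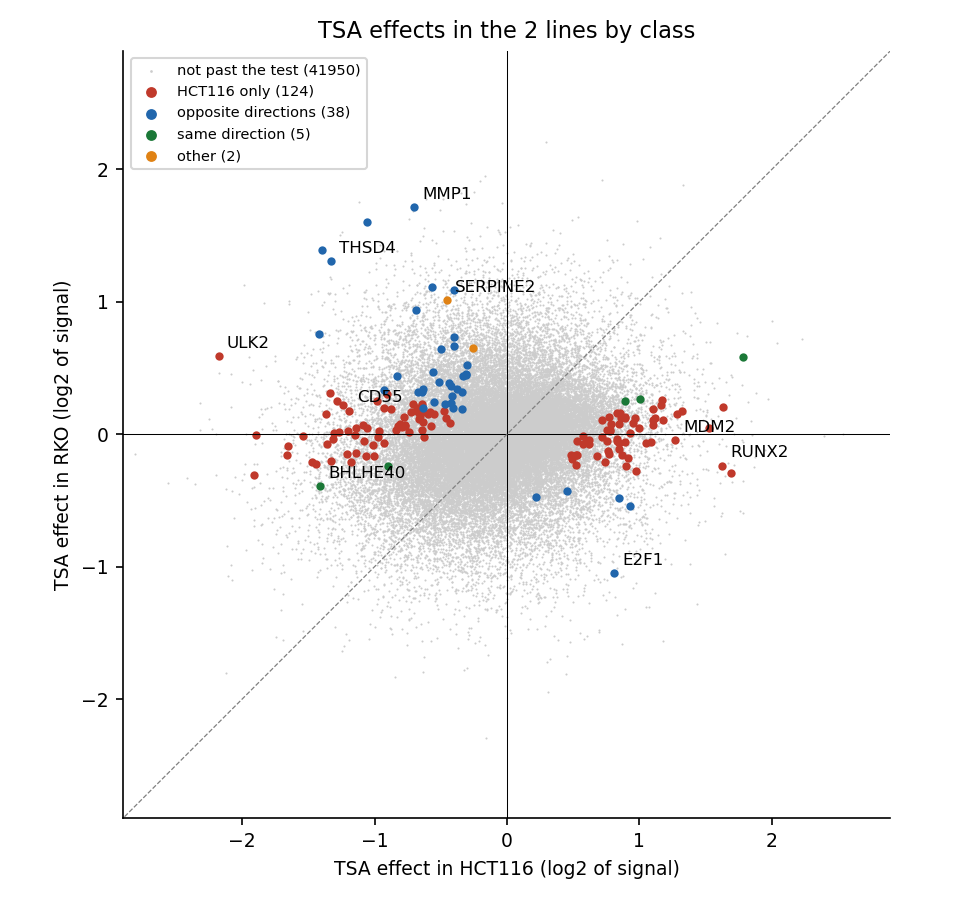
TSA effect in HCT116 (horizontal axis) against RKO (vertical axis), both in log2 of signal, for the 42119 probe sets tested. Colours give the class of the 169 past the line-by-TSA test: the 124 "HCT116 only" points lie along the horizontal axis, and the 38 "opposite" points lie in the upper left and lower right of the plot. The dashed line marks equal effects.

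Being in the "HCT116 only" class does not show that RKO did not respond. The 95% interval of the RKO effect lay within 0.5 either side of 0 for 102 of the 124 probe sets, within 0.25 for 10 and within 1 for 123. The RKO effect had the other sign from HCT116 at 76 probe sets and the same sign at 48, with a median size of 0.12. Choosing probe sets by a large difference between lines and an RKO p of at least 0.05 favours both. None of the 124 was under 100 on all 8 RKO arrays, as 1.88% of all tested probe sets were, and 99.2% had a mean RKO signal of 500 or more against 40.6% of all tested. The genes were thus measured in RKO and not missing there, though the test itself passes bright probe sets more easily.

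The sequence before the transcription start is shown for 4 genes, as a view of the promoters that the acetylation of histones bears on: CD55 and PLAUR from the "HCT116 only" class and TIMP1 and E2F1, whose effects had opposite signs. These 250 bases up to the start are from RefSeq (GRCh38.p14), 5′ to 3′ on the gene's strand, with 5 motifs in capitals where they occur on either strand. A GC box was read as GGGCGG and a TATA box as TATAAA. An AP-1 site was read as TGACTCA, an E-box as CACGTG and the CCAAT box by the letters of its name.
CD55 (chr1:207321428-207321677, plus strand): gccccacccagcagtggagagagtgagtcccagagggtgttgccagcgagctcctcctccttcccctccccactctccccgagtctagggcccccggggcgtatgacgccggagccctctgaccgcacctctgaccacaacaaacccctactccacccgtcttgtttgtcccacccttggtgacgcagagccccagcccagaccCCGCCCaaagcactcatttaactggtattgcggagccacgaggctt
PLAUR (chr19:43670170-43670419, minus strand): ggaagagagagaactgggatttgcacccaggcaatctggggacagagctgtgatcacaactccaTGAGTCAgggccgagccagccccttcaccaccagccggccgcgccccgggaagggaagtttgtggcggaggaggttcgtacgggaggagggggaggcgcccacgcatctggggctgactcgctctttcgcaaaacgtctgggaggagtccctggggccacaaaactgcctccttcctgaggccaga
TIMP1 (chrX:47582186-47582435, plus strand): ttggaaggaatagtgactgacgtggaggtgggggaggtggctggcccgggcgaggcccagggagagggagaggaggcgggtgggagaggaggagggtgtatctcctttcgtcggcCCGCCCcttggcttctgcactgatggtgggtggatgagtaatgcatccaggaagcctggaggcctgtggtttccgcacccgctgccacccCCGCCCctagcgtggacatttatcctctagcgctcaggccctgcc
E2F1 (chr20:33686386-33686635, minus strand): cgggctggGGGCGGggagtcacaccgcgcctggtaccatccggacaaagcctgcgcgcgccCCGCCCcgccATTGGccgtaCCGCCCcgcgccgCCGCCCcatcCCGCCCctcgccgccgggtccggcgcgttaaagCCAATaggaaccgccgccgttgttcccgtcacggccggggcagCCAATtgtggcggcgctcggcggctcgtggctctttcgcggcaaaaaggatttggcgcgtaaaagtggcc

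The E2F1 stretch held 5 GC boxes and 3 CCAAT boxes, TIMP1 2 GC boxes, CD55 1 GC box and PLAUR 1 AP-1 site, and none held a TATA box or an E-box in these letters. In windows of 300 bases (250 before to 50 after the start), an AP-1 site was in 3.95% of the 18709 windows of tested genes, in 7 of 55 windows (6 genes) of "HCT116 only" genes that rose and in 6 of 71 (5 genes) of those that fell. An E-box was in 8.71% of all windows, in 11 of 55 windows of genes that rose and in 9 of 71 of those that fell. A GC box was in 60.1% of all windows, a TATA box in 7.87% and a CCAAT box in 34.6%. In windows of genes that rose these shares were 72.7%, 14.5% and 45.5%, so every motif counted was more frequent there. In those that fell they were 63.4%, 7.04% and 29.6%. Of the 28 windows of opposite genes down in HCT116, 1 held an AP-1 site and 1 an E-box. These are counts of letters, made without a test.

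Among genes of the "HCT116 only" class that rose were RUNX2, CCND1, MDM2, ADM, LTAP1, CDC25A, PSMC2 and ARPC4. The 58 probe sets of 49 genes had HCT116 effects of 0.48 to 1.69 (median 0.85) and RKO effects of -0.3 to 0.26 (median -0.03). Below, 4 signals are given per line and TSA state, in the order no other drug, PJ-34, 5-aza-dC and both. RUNX2, a RUNT-domain transcription factor of bone formation, read 246, 254, 306 and 367 in HCT116 without TSA and 716, 942, 927 and 1003 with it. In RKO it read 1960.4, 1477, 1358 and 2229 without TSA and 1499.5, 1544, 1404 and 1394 with it. TSA thus moved RUNX2 in HCT116 into a separate range that was still under every RKO array, and the RKO groups overlapped. Its difference was 1.86 ± 0.25 (SE; adjusted p = 0.00605), from 1.68 to 2.0 when 1 array was left out, with an RKO effect of -0.24 (95% interval -0.61 to 0.13). Of 4 RUNX2 probe sets tested, 1 passed and 2 had a positive difference.

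CCND1, the cyclin D1 gene that drives cells out of G1, read 6256, 6895, 9118 and 9138 in HCT116 without TSA and 11842, 14278, 13946 and 15850.0 with it. RKO signals were 1702, 2037, 1736 and 1725 without and 1522, 1932, 1531 and 1693 with TSA. The groups separated in HCT116 and overlapped in RKO. The difference was 0.96 ± 0.14 (adjusted p = 0.00764), and both CCND1 probe sets passed. MDM2, the ubiquitin ligase that p53 induces and that degrades p53, read 3621, 3274, 4897 and 4325 without TSA in HCT116 and 6811, 11235, 10755 and 10275 with it. RKO signals were 3819, 7719.9, 6593 and 5417 without and 4496, 5669.6, 7473 and 4865 with TSA, fully intermixed. The MDM2 difference was 1.31 ± 0.27 (adjusted p = 0.0421), and the call ended in 10 of 16 fits without 1 array. Of 10 MDM2 probe sets tested, only 1 passed, and all 10 had a positive difference.

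ADM, which encodes the secreted vasodilator peptide adrenomedullin, read 4963 to 6832 in HCT116 without TSA and 9974 to 15273 with it, against 3043 to 4279 and 3529 to 4577 in RKO. Its difference was 0.99 ± 0.15 (adjusted p = 0.0112). LTAP1 read 475 to 623 without and 1520.1 to 1667 with TSA in HCT116, which brought it to the RKO range of 1198 to 1847. Its difference was 1.43 ± 0.20 (adjusted p = 0.00605). Of 3 LTAP1 probe sets tested, 1 passed and 2 had a positive difference. The ADM and LTAP1 calls held whichever array was left out. CDC25A, the phosphatase that activates CDK2, had the largest difference of the class, 1.98 ± 0.42 (adjusted p = 0.0473), but read as low as 52.5 in HCT116 and lost its call in 14 of 16 such fits. PSMC2, a proteasome ATPase subunit (1.47 ± 0.31), and ARPC4, a subunit of the actin-nucleating Arp2/3 complex (1.14 ± 0.24), also passed and lost the call as often. Only 1 of 3 CDC25A, 1 of 3 PSMC2 and 1 of 2 ARPC4 probe sets passed, though all had a positive difference.

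Genes of the "HCT116 only" class that fell included CD55, DDIT3, C6orf141, GEM, ISG20, PTPN7 and ULK2. The 66 probe sets of 56 genes had HCT116 effects of -2.18 to -0.43 (median -0.95) and RKO effects of -0.31 to 0.59 (median 0.06). CD55, a membrane regulator that protects cells from complement and whose promoter is shown above, read 5811, 5651, 6006 and 4981 in HCT116 without TSA and 2575, 2022, 2785 and 2476 with it. In RKO it read 1905, 2124, 2251 and 2556 without and 2128, 2189.5, 3086 and 2661 with TSA. TSA brought CD55 in HCT116 down to the level of RKO, where the groups overlapped. The difference of -1.37 ± 0.16 had the smallest adjusted p of all, 0.00295, and ranged from -1.42 to -1.29 without 1 array. The RKO effect was 0.18 (-0.05 to 0.41), and 2 of 3 CD55 probe sets passed.

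DDIT3, the CHOP transcription factor of the integrated stress response, read 6757, 5149, 2812 and 1667 in HCT116 without TSA and 1381, 1035, 1275 and 906 with it. In RKO it read 1701, 1527, 1848 and 1736 without and 1429, 1449, 1365 and 2287 with TSA. DDIT3 was higher in HCT116 than in RKO in 3 of 4 backgrounds without TSA and lower in all 4 with it. The exception, with both other drugs (1667 against 1736), rests on an RKO array that goes against its label. The DDIT3 difference was -1.57 ± 0.30 (adjusted p = 0.0288), and its call ended in 9 of 16 fits without 1 array. C6orf141 read 1931, 2103, 1074 and 464 without and 445, 462, 312 and 164 with TSA in HCT116, and 1244 to 1538 on all 8 RKO arrays. Each C6orf141 pair fell in HCT116 and the groups met at 464 and 462, with a difference of -1.89 ± 0.30 (adjusted p = 0.0122) and an RKO effect of 0.00 (-0.45 to 0.44).

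GEM, a small GTP-binding protein induced by mitogens, read 3175 to 3711 without and 1166 to 1857 with TSA in HCT116 and 9856 to 19913 over the RKO arrays (difference -1.53 ± 0.26, adjusted p = 0.0166). ISG20, an interferon-induced exonuclease, read 593 to 824 without and 137 to 245 with TSA in HCT116, and 1235 to 2251 in RKO (-1.61 ± 0.27, adjusted p = 0.0134). PTPN7, a tyrosine phosphatase of MAP kinases, was at 139 to 660.4 without and 35.6 to 292 with TSA in HCT116, so its groups overlapped, while each pair fell (-1.53 ± 0.28, adjusted p = 0.0241). ULK2, a kinase of the autophagy pathway, had the largest negative difference of the class, -2.77 ± 0.58 (adjusted p = 0.0448), at signals of 443 and lower in both lines. It read 28 on the RKO array labelled PJ-34 against 166 to 323 on the other RKO arrays, and its call ended in 14 of 16 fits without 1 array. Of 4 ULK2 probe sets tested, 1 passed and all 4 had a negative difference. The TSA groups did not overlap at 121 of all 124 "HCT116 only" probe sets in HCT116 (11.5% of all tested) and at 2 in RKO (6.29% of all tested). Both counts are largely fixed by the p-value limits in each line that define the class.

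**Figure D3:**
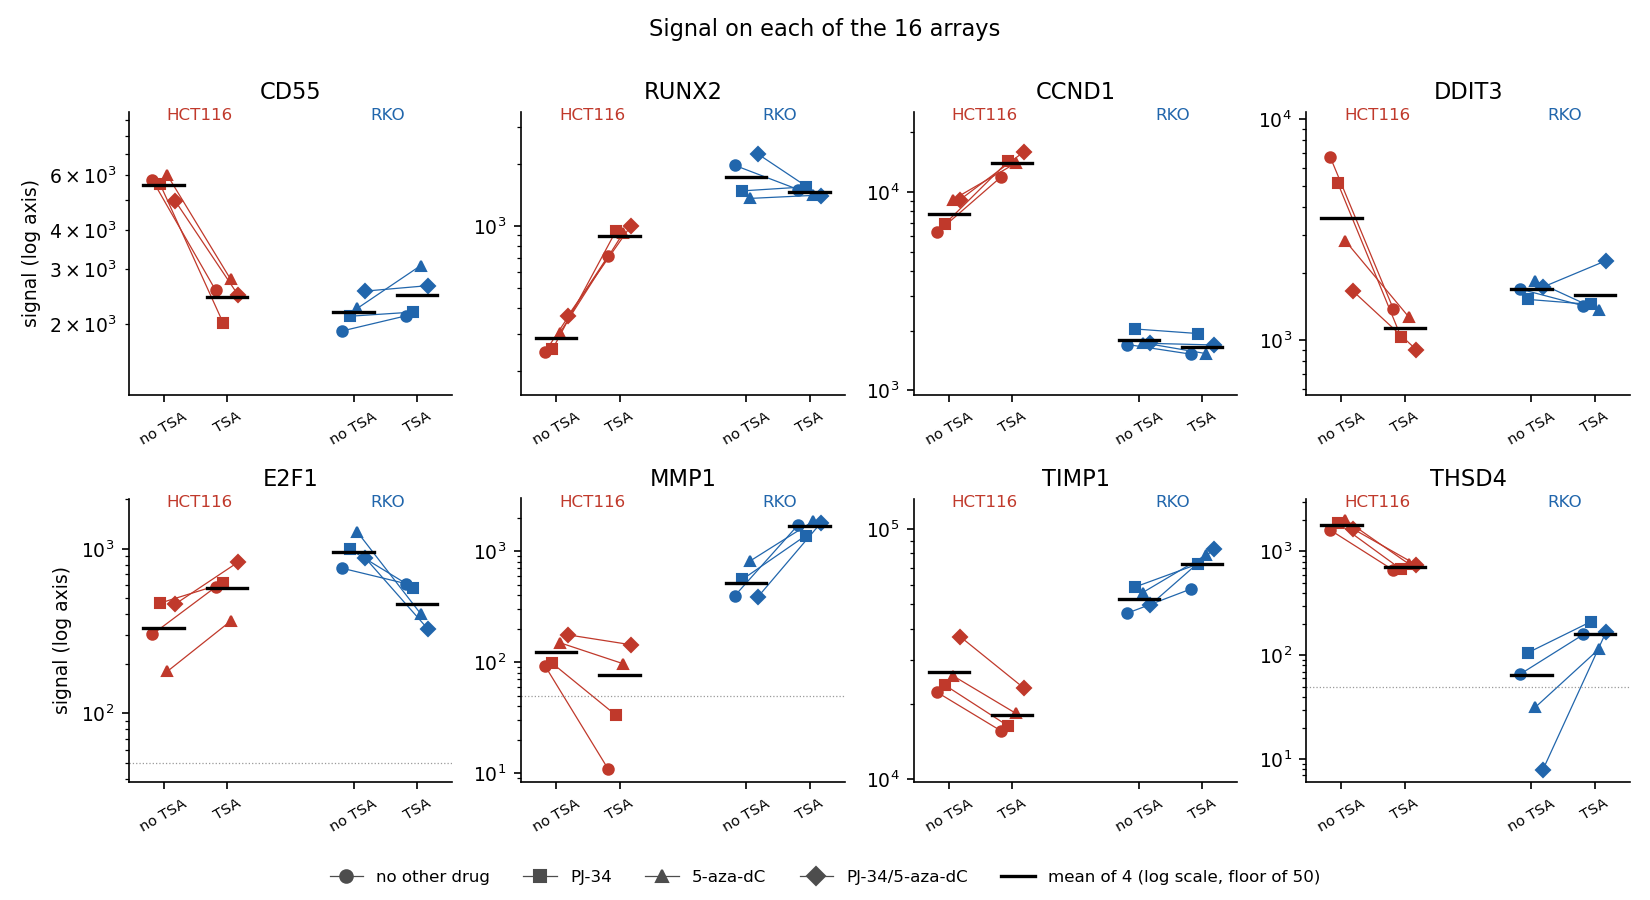
Signal of 8 genes on each of the 16 arrays (log axis), HCT116 in red and RKO in blue, with lines joining the arrays without and with TSA of the same drug background and marker shapes giving that background. Black bars are means of 4 arrays on the log scale after the floor of 50, drawn as a dotted line where in range. CD55, RUNX2, CCND1 and DDIT3 are of the "HCT116 only" class, and the effects of E2F1, MMP1, TIMP1 and THSD4 differ in sign between the lines.

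The 33 opposite probe sets down in HCT116 covered 28 genes, with HCT116 effects of -1.42 to -0.3 (median -0.5) and RKO effects of 0.19 to 1.71 (median 0.44). The HCT116 effect passed the adjustment at 23 of them and at 3 of the 5 in the other direction, and the RKO effect at none of the 38. MMP1, the interstitial collagenase, read 93.5, 97.7, 149.9 and 177 in HCT116 without TSA and 10.9, 33.5, 96.9 and 144 with it. In RKO it read 398, 558, 817 and 385 without and 1729.7, 1385, 1869 and 1805 with TSA. The RKO groups were apart, while the HCT116 groups overlapped near background. The MMP1 difference was -2.41 ± 0.41 (adjusted p = 0.0159), from effects of -0.70 in HCT116 and 1.71 (1.1 to 2.33) in RKO, and ended in 6 of 16 fits without 1 array.

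TIMP1, the secreted inhibitor of MMP1 and other matrix metalloproteinases, read 22191, 23729, 25932 and 37128 without and 15590.0, 16266, 18292 and 23165 with TSA in HCT116. The RKO arrays gave 46144, 58720.0, 55752 and 49743 without and 57610.0, 72694, 78880.0 and 83030.0 with TSA. All 4 pairs went down in HCT116 and up in RKO, with a small overlap of the groups in each line. The difference was -1.03 ± 0.14 (adjusted p = 0.00628), from -0.56 and 0.47, and it passed in every fit without 1 array. SERPINE2, a secreted inhibitor of plasminogen activators and thrombin, fell outside the opposite class only because its unadjusted p in HCT116 was 0.0523. It read 186, 594, 447 and 335 in RKO without TSA and 619, 618, 861 and 838 with it, and 17824 to 22120.0 without and 11364 to 16584 with TSA in HCT116. Its effects were -0.46 in HCT116 and 1.01 (0.55 to 1.48) in RKO (difference -1.47 ± 0.31, adjusted p = 0.0462), and its call ended in 14 of 16 fits without 1 array.

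THSD4, a thrombospondin-repeat protein of microfibrils, read 1611, 1875, 2019.5 and 1652 in HCT116 without TSA and 661, 675, 761 and 746 with it. RKO signals were 65.9, 106, 31.7 and 7.93 without and 159, 211, 114 and 169 with TSA. Neither line's groups overlapped, but all RKO signals were 211 or lower. The difference was -2.63 ± 0.35 (adjusted p = 0.00605), and THSD4 was the only named call that held under every setting and every left-out array, at -3.13 to -1.98. Only 1 of 3 THSD4 probe sets passed, and 2 had a negative difference. SBSPON (-2.67 ± 0.51), CLIC3, a chloride channel family member (-2.18 ± 0.44), and MPP7, a polarity scaffold protein (-1.67 ± 0.35), also had RKO signals under 300 on all 8 arrays. Without 1 array the SBSPON and CLIC3 calls each ended in 12 of 16 fits and MPP7 in 14. Over all settings the difference ran from -3.29 to -1.54 for SBSPON, -2.73 to -1.61 for CLIC3 and -1.97 to -1.22 for MPP7. GPAT3, a glycerol phosphate acyltransferase, read 263 to 519.9 without and 528 to 933 with TSA in RKO and 1649 to 3416 without and 1449 to 1635 with it in HCT116 (-1.62 ± 0.34, adjusted p = 0.0438). DUSP5, a nuclear phosphatase of ERK that ERK signalling induces, read 4512 to 5276 without and 2161 to 3177 with TSA in HCT116, and 3630.2 to 4901 and 3949 to 6471 in RKO. Its difference was -1.26 ± 0.20 (adjusted p = 0.0128).

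The reverse pattern, up in HCT116 and down in RKO, was held by E2F1, ELOA, API5, FKBP15 and INO80C. E2F1, the transcription factor that switches on S-phase genes and whose promoter is shown above, read 302, 468, 180.1 and 461 in HCT116 without TSA and 585, 616, 364 and 832 with it. The RKO arrays gave 762, 994, 1265 and 883 without and 615, 579, 403 and 324 with TSA. The RKO groups did not overlap, and the HCT116 groups did, with all 4 pairs up. The E2F1 difference was 1.85 ± 0.37 (adjusted p = 0.0381), from 0.81 and -1.05 (-1.6 to -0.49), and ended in 12 of 16 fits without 1 array. ELOA, the transcription elongation factor elongin A, had effects of 0.93 and -0.54, and its difference was 1.47 ± 0.29 (adjusted p = 0.038). API5, an apoptosis inhibitor, read 679 to 876 without and 1203 to 1489 with TSA in HCT116, apart, and 1549 to 2418 and 1159 to 1559 in RKO, overlapping (1.33 ± 0.23, adjusted p = 0.0157). FKBP15 (0.88 ± 0.18) and INO80C, a subunit of the INO80 chromatin remodeler (0.69 ± 0.14), passed with smaller differences. Without 1 array the ELOA call ended in 15 of 16 fits, FKBP15 in 14, INO80C in 13 and API5 in 3.

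All 5 probe sets of the same-direction class moved more in HCT116 than in RKO. PPIF, the mitochondrial cyclophilin D, read 4019 to 5669 without and 8230.5 to 10441 with TSA in HCT116, and 9159 to 9963 and 11088 to 12133 in RKO, with no overlap in either line (difference 0.73 ± 0.14, adjusted p = 0.0288). PNO1, a ribosome assembly factor, had a difference of 0.64 ± 0.14 (adjusted p = 0.0496). BHLHE40, a transcriptional repressor of the clock and of hypoxia responses, had effects of -1.41 and -0.39, and SH3YL1 of -0.90 and -0.24. Without 1 array the PNO1 and SH3YL1 calls each ended in 14 of 16 fits, BHLHE40 in 12 and PPIF in 11. Without both disputed RKO arrays all of these calls ended. The remaining probe set of the class has no single gene symbol.

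The difference between the lines had the same sign in all 4 drug backgrounds for each of the 169 probe sets, against 20.1% of all tested, which the choice of probe sets with small errors largely fixes. The spread over backgrounds was nonetheless unequal, as the plot of the 4 backgrounds shows. After the floor on low signals, THSD4 and CD55 differed little between backgrounds, whereas the MDM2 difference was 0.68 with no other drug and 2.22 with PJ-34. THSD4 signals in RKO without TSA went down to 7.93 and were raised to the floor. The small spread of THSD4 therefore holds for floored values only. The GEM difference was -2.51 with PJ-34 and -0.87 with both other drugs. The RKO values with PJ-34 and with both other drugs each rest on an array that goes against its label, so these differences of MDM2 and GEM do too.

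**Figure D4:**
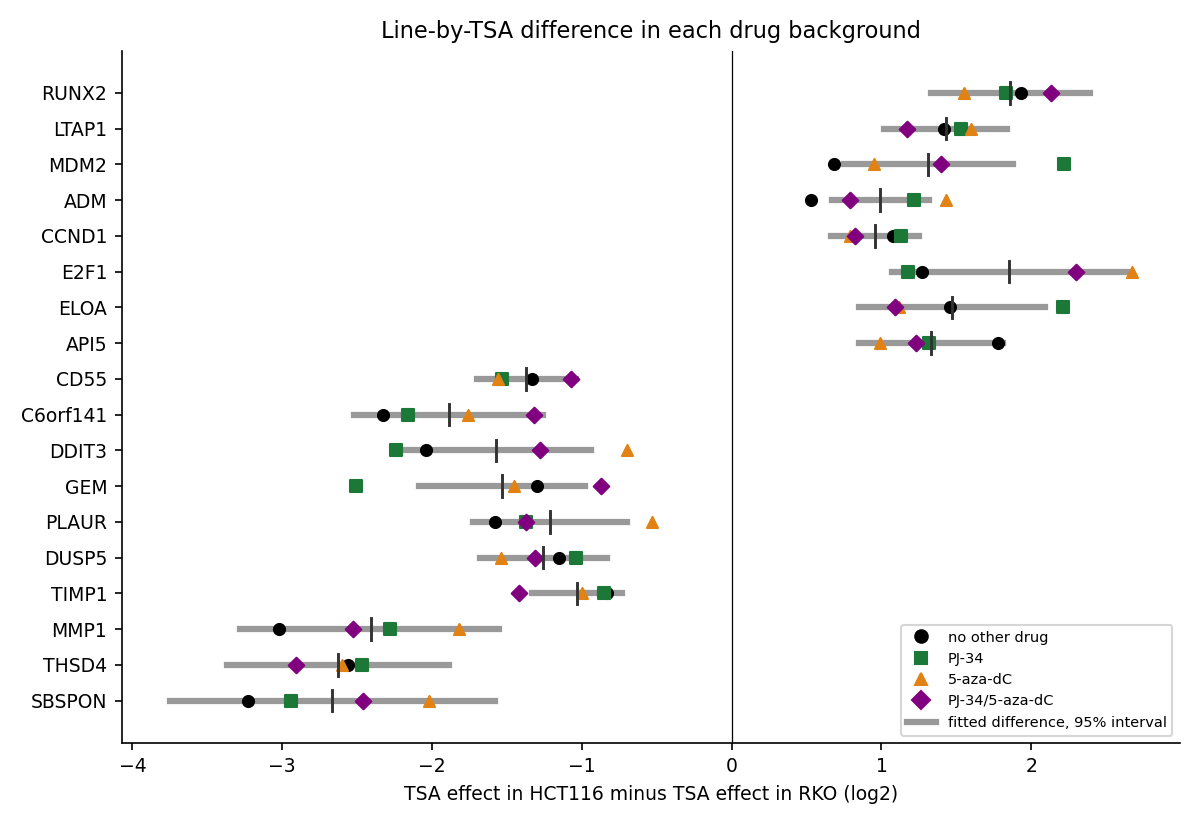
TSA effect in HCT116 minus that in RKO (log2, horizontal axis) of 18 genes in each of 4 drug backgrounds, from 4 arrays each, by marker. Grey bars are the 95% interval of the fitted difference and the dark tick its value; no marker crosses 0, and the 4 markers of MDM2 and GEM lie farther apart than those of CD55 and CCND1.

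Lists of genes by function, 1 probe set per gene, showed how the differing genes were placed. Over all probe sets tested, 0.245% passed with a lower and 0.157% with a higher effect in HCT116, for comparison with the counts below. Of 24 MAPK pathway output genes measured, 4 had a lower effect in HCT116 and 1 a higher one, with a list median of -0.37. The 4 were DUSP5, SPRY4, a feedback inhibitor of receptor signalling (-1.06 ± 0.19, adjusted p = 0.0217), and the immediate early transcription factors EGR1 (-1.46 ± 0.31, adjusted p = 0.0446) and JUN (-0.65 ± 0.14, adjusted p = 0.0496), and the 1 was CCND1. Without 1 array the calls of JUN ended in 14 of 16 fits, EGR1 in 13, SPRY4 in 9 and DUSP5 in 2. EGR1 read 28580.0 to 63453 without and 12702 to 25648 with TSA in HCT116 and 21630.0 to 33392 over the RKO arrays. Of 20 matrix protease and plasminogen activator genes, 4 had a lower effect in HCT116 and 0 a higher one, with a median of -0.29: TIMP1, MMP1, SERPINE2 and PLAUR. Of these genes, 2 of the 4 are inhibitors of proteases, 1 is a protease and 1 a receptor. PLAUR, the urokinase receptor, read 3140.0 to 4314 without and 1375 to 2029.6 with TSA in HCT116 and 6405 to 8778 over the RKO arrays at its probe set with the middle difference, and all 3 of its probe sets passed, the largest at -1.21 ± 0.25. The call of that middle probe set ended in 3 of 16 fits without 1 array, and each of the others in 12. All of these PLAUR calls ended without both disputed RKO arrays (adjusted p from 0.0564 to 0.188 by limma).

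Of 28 integrated stress response genes, 3 had a lower effect in HCT116 (0.245% of all tested) and 0 a higher one (0.157%), with 24 of 28 differences negative and a median of -0.49. In HCT116 itself 16 of the 28 fell and 0 rose, against 4.67% down and 4.64% up of all probe sets tested. The median TSA effect of the list was -0.63 in HCT116 and -0.21 in RKO. In RKO 5 of the 28 fell and 1 rose at an unadjusted p under 0.05 by limma, against 8.03% of all tested in either direction. The 3 past the difference test were DDIT3, the amino acid transporter SLC38A2, at 44122 to 63346 without and 30065 to 37127 with TSA in HCT116 (-0.84 ± 0.12, adjusted p = 0.00764), and PCK2, the mitochondrial PEP carboxykinase (-1.26 ± 0.23, adjusted p = 0.0241). PCK2 read 2111 to 5047 without and 1097 to 1274 with TSA in HCT116, and 1695 to 2058 and 1434 to 1813 in RKO. Of 27 p53 target genes, 1 passed, MDM2, with a median of 0.45, and 11 rose in HCT116 (4.64% of all tested) with 0 falling. The median TSA effect of these genes was 0.53 in HCT116 and 0.25 in RKO, where 3 rose and 0 fell at an unadjusted p under 0.05. CDKN1A, the p21 inhibitor of cyclin-dependent kinases, had effects of 0.98 and 0.35 and a difference of 0.63 ± 0.28 that did not pass (adjusted p = 0.367).

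Several lists had medians away from -0.04 with few or no members past the test. Of 40 DNA replication genes, 0 passed by limma and 17 had an unadjusted p under 0.05, all 17 higher in HCT116, against 12.2% of all tested in either direction, with a median of 0.36 and 38 of 40 differences positive. PCNA, the sliding clamp of replication, had 0.71 ± 0.16 (adjusted p = 0.0654). Of 17 cholesterol synthesis genes, 0 passed, with a median of 0.36 and 9 higher and 1 lower at an unadjusted p under 0.05. All 13 ribosomal protein genes measured had negative differences, with a median of -0.26 and 0 past the test (9 at an unadjusted p under 0.05). Genes of one list were measured on the same arrays, so such counts are not independent observations.

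Other lists held 1 call or none at the probe set used for the list. Of 32 interferon-stimulated genes, 1 passed, IFITM2, an antiviral membrane protein (-0.75 ± 0.14, adjusted p = 0.0273), at the probe set used for the list, and the median was -0.21. ISG20 passed at another of its probe sets, as given above, and at -1.02 ± 0.22 missed with the one used here (adjusted p = 0.0521). IFITM1 had a larger difference, -2.20 ± 0.88, that did not pass (adjusted p = 0.305). Of 22 HDAC inhibitor response genes, CCND1 passed, and so did SAT1, a polyamine acetyltransferase, but at another of its probe sets than the one used for the list (-1.28 ± 0.19, adjusted p = 0.00764). DHRS2, a dehydrogenase known to be induced by HDAC inhibitors, had positive effects in both lines, 2.23 in HCT116 and 0.72 in RKO. Its difference of 1.51 ± 0.48 did not pass (adjusted p = 0.188). CDC25B among 32 mitosis genes (-0.75), ITGA5 among 26 cytoskeleton and adhesion genes (-0.88), HSPE1 among 20 heat shock protein genes (0.58), CD55 among 5 complement regulators and RUNX2 among 6 RUNX and partner genes were the single calls of their lists. The other 5 RUNX and partner genes did not pass, and the list's median was -0.69. Among 27 hypoxia and glycolysis genes ADM passed, and the glycolytic enzyme gene PGK1 did at another probe set than the list's (0.68 ± 0.13, adjusted p = 0.0375). CCND1 passed among 18 Wnt target genes, where the adhesion receptor gene CD44 did at another probe set (-0.76 ± 0.15, adjusted p = 0.0384), and among 15 CDK inhibitors and cyclins, where CDC25A, described above, also passed at another probe set than the list's.

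Among the enzymes that TSA acts on and their relatives, none of 17 histone deacetylases passed, and the list median was -0.14. Of the 17, 2 had an unadjusted p under 0.05 in each direction, against 12.2% of all tested in either direction. The difference was -0.22 ± 0.13 for HDAC1, 0.23 ± 0.11 for HDAC2 and 0.16 ± 0.15 for HDAC3, each with an adjusted p of 0.434 or more. Colon epithelium (15 genes), blood-lineage (7), and fibroblast and mesenchyme (17) markers had no call either, with medians of -0.32, -0.50 and -0.55. The same was true of the 19 replication-dependent histone, 19 NF-kB target, 24 epithelial junction and 15 BCL2 family genes. At an unadjusted p under 0.05 these 7 lists held from 0 to 3 genes in a direction, beside the same 12.2% of all tested. The most were among the 17 fibroblast and mesenchyme markers, 2 higher and 3 lower. JMJD1C (-0.18 ± 0.30) and THBS1 (0.85 ± 0.58) did not pass.

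**Figure D5:**
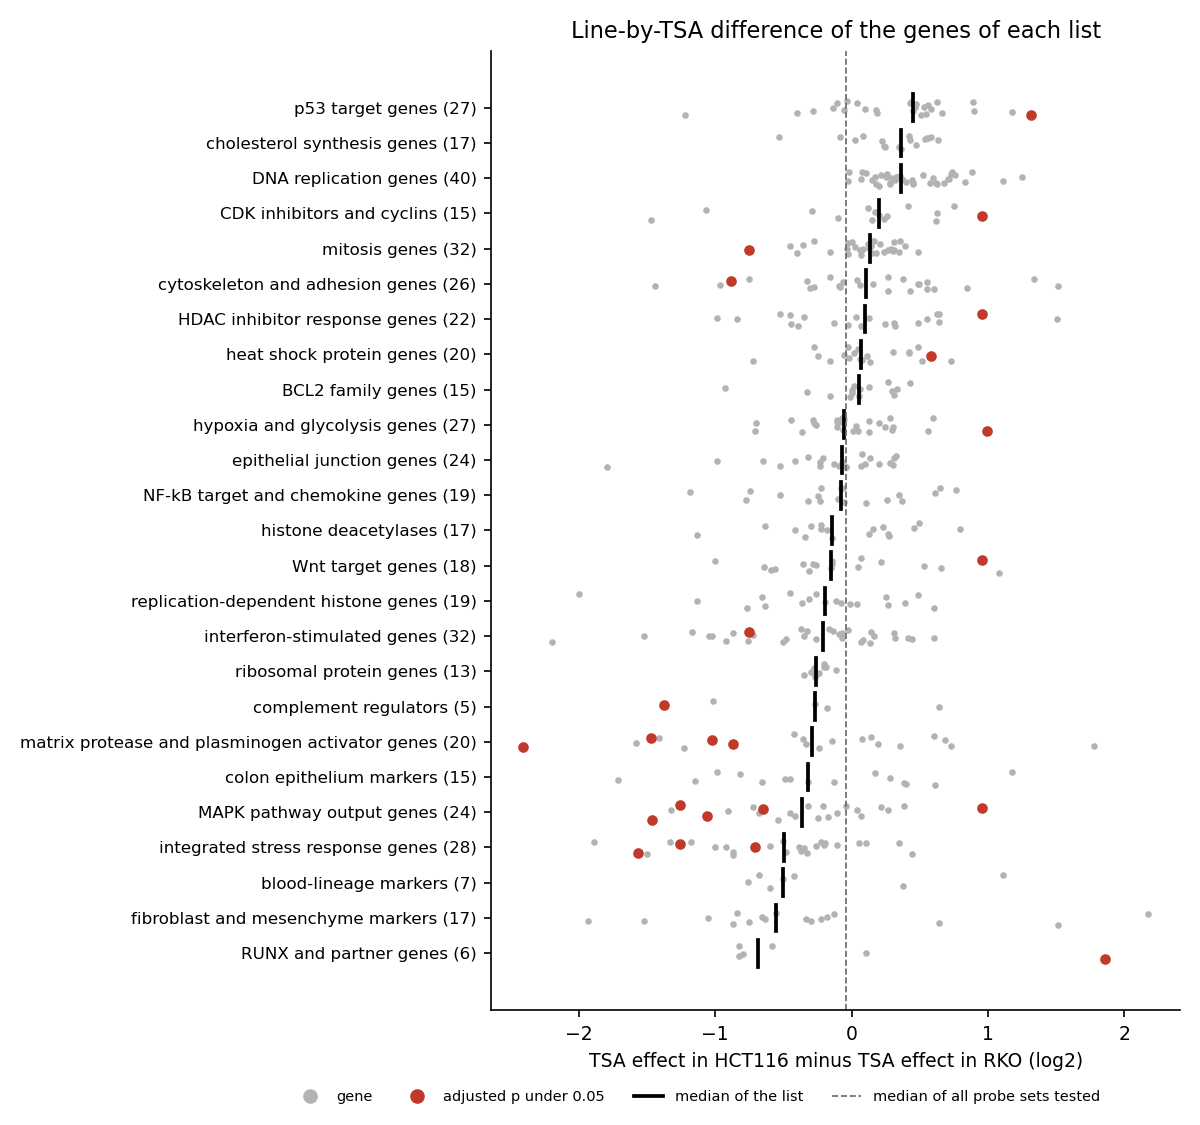
Line-by-TSA difference (log2, horizontal axis) of each measured gene of 25 lists (vertical axis, number of genes in brackets), 1 probe set per gene. Red points passed an adjusted p of 0.05, black ticks are list medians and the dashed line is the median of all probe sets tested; 4 red points lie left of 0 for matrix protease genes and for MAPK output genes.

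Class I MHC genes and B2M, which present peptides at the cell surface, were singled out after their values were seen. All 21 of their probe sets, from 7 genes, had a lower TSA effect in HCT116 than in RKO, by -1.24 to -0.42 (median -0.83), and 9 passed (0.245% of all tested passed with a lower effect). HLA-B had effects of -0.50 and 0.64 (difference -1.14 ± 0.21, adjusted p = 0.0222), HLA-E of -0.51 and 0.40 (-0.91 ± 0.17, adjusted p = 0.0238) and B2M of -0.34 and 0.19 (-0.53 ± 0.11, adjusted p = 0.0375). Of the 21 probe sets, 16 are of the kind that matches several genes, so the HLA genes cannot be told apart and the 21 are not separate measurements. Of the 38 opposite probe sets, 14 are of that kind.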

How the data were processed

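Per the labels, the deposited values are Affymetrix GCOS signals (intensity on a linear scale, U133 Plus 2.0), 1 array per line and condition, whose trimmed means are equal; the study names GeneSpring for its own analysis. No background or probe-level step was repeated. Signals were floored at 50, log2-transformed, and kept at 100 or more on at least 4 arrays. With limma 3.58.1 (R 4.3.3), line, PJ-34, 5-aza-dC and TSA effects per line were fitted to all 16 arrays (8 residual degrees of freedom, variance trend over signal), and p-values were adjusted by Benjamini-Hochberg over 42119 probe sets. Other floors, filters, a quantile normalization, other model terms, array weights, leaving out arrays and, chosen after seeing the data, the drug background as a block in each line were tried. The script was tested on simulated data. Gene names are those of GEO's platform annotation: 32689 tested probe sets had 1 symbol, 1481 several and 7949 none. Up to 6 genes per class and 3 per list were named by largest difference (mean signal of 200 or more, same direction in all 4 pairs, or in 3 of 4 in each line for opposite effects) or smallest p, with RUNX2, CD55, MMP1, JMJD1C, THBS1, DHRS2, IFITM1, CDKN1A and HDAC1 to HDAC3. The other genes past the test were named after their values were seen. Members and lists were chosen with earlier results of these data known. The number of arrays limits the precision. Promoter windows are RefSeq (GRCh38.p14) and were listed for 13159 of 16647 tested genes.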

Additional observations from a re-analysis of the deposited data

Results flagged for a closer look

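The line-by-TSA term itself differed between the lines at 169 probe sets, and at 39 of the genes named by rule. The TSA effect was higher in HCT116 than in RKO for 16 of these genes. The log2 differences were 1.98 for CDC25A, 1.86 for RUNX2, 1.85 for E2F1, 1.47 for PSMC2, 1.47 for ELOA, 1.43 for LTAP1, 1.33 for API5 and 1.31 for MDM2. They were 1.14 for ARPC4, 0.99 for ADM, 0.96 for CCND1, 0.88 for FKBP15, 0.73 for PPIF, 0.69 for INO80C, 0.64 for PNO1 and 0.58 for HSPE1.

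The effect was lower in HCT116 for 23 genes. The log2 differences were -2.77 for ULK2, -2.67 for SBSPON, -2.63 for THSD4, -2.41 for MMP1, -2.18 for CLIC3, -1.89 for C6orf141, -1.67 for MPP7 and -1.62 for GPAT3. They were -1.61 for ISG20, -1.57 for DDIT3, -1.53 for GEM, -1.53 for PTPN7, -1.37 for CD55, -1.26 for DUSP5 and -1.26 for PCK2. They were -1.21 for PLAUR, -1.06 for SPRY4, -1.03 for TIMP1, -0.88 for ITGA5, -0.84 for SLC38A2, -0.75 for CDC25B, -0.75 for IFITM2 and -0.66 for SH3YL1. No labelled group held the 4 arrays that a test for a single outlying sample needs.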

How the results depend on the processing

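No result reversed: the 169 line-by-TSA differences kept their sign under every alternative that tested them (167 of 169 with the filter at 200). No paired analysis was possible because every label carries the same replicate number, but arrays can be paired by drug background. That fit, added after the data were seen, gave 263 differences, 188 for HCT116 only and 57 for opposite directions, and shared 168 of the 169. Without the filter the counts were 36 for the difference, 25 for HCT116 only and 7 for opposite directions, and 52.8% of the calls were higher in HCT116 against 39.1% with it. Without the variance trend they were 3, 1 and 2, with 1166 TSA effects in HCT116. Without both disputed RKO arrays they were 56 (39 of them among the 169), 32 and 19, with 2 TSA effects in RKO and 23.2% of the calls higher in HCT116. The opposite class held 59 probe sets after quantile normalization and 19 with line and TSA terms alone, and a floor of 100 gave 1 TSA effect in RKO. Leaving out 1 array gave 19 to 762 differences, 16 to 577 for HCT116 only, 2 to 91 for opposite directions, 1588 to 5469 TSA effects in HCT116 and 0 to 23 in RKO. The count of differences stayed within 1.5 times of 169 only without the HCT116 TSA (183), HCT116 5-aza-dC/TSA (123) or RKO PJ-34/5-aza-dC (155) array. It was 762 without HCT116 PJ-34/5-aza-dC, with 57.1% higher in HCT116, and 276 without the RKO array labelled PJ-34, and 19 to 99 without each of the other 11. The 762 included all 169. Without the RKO array labelled PJ-34, the class for RKO alone held 6 probe sets, among them those of ARC, PRF1, SMAD3 and TIMP2. Of 154 named probe sets past the test, 15 passed in every fit without 1 array, 38 failed in 1 to 8 and 101 in 9 or more. The causes were not tested. With 4 arrays per arm in a line, the median standard error of a difference was 0.481, so small differences at dim probe sets could not be detected.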
